A study of Arabidopsis thaliana with 6 samples.

Results

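The genes described here are the auxin response factors (ARFs) and the Aux/IAA repressors of Arabidopsis thaliana, measured in early embryos and in the seed coat. The 45 members were taken from a list of locus identifiers of both families, 16 ARF and 29 Aux/IAA loci, out of 32140 loci in the deposited tables. The list is one of family membership, with no threshold on a measured value. Where a locus had several isoforms, the one with the highest read total stood for the gene. The RNA came from hand-dissected material, was amplified linearly and was sequenced on the SOLiD platform. The study set embryos with a kyp-2 mutant mother beside wild-type embryos, and also sampled a later stage and the seed coat.

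Auxin is the plant hormone that sets the axis of the embryo. ARFs are the transcription factors that bind auxin response elements in DNA, and Aux/IAA proteins bind ARFs and hold their target genes off together with TOPLESS co-repressors. Auxin glues Aux/IAA proteins to TIR1/AFB receptors of an SCF ubiquitin ligase, the repressors are degraded, and the ARFs are freed. ARF5, also named MONOPTEROS, and its partner IAA12, also named BODENLOS, are known from mutants whose embryos form no root.

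The first group was 2 libraries (WT 7 and WT 11) of embryos with 2 to 4 cells, with a wild-type mother of Landsberg erecta (Ler) and a wild-type Columbia (Col-0) father. The second was 2 libraries (kyp 11 and kyp 12) of embryos of the same size from kyp-2 mothers, labelled Ler, and Col-0 fathers. KYP, or KRYPTONITE, is a histone H3 lysine methyltransferase. These embryos are heterozygous by the series title, which writes a mutant maternal and a normal paternal allele. The third was 1 library of globular embryos of the wild-type Ler by Col-0 cross, and the fourth 1 library of wild-type Ler seed coat from seeds whose embryos had 2 to 4 cells. All embryos were labelled as keeping part of the suspensor, the stalk that anchors the embryo. Library kyp 11 carries both kyp-2 and wild type under the tag for maternal genotype, and was kept as kyp by the first of these and by its name. The labels leave unsaid whether the paired libraries are separate pools of seeds. The p-values therefore measure the spread between these libraries alone, which may be technical. The globular and seed coat groups have no replicate, and their tests borrow the spread within the 2-to-4-cell pairs.

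Some ARF transcripts are known targets of small RNAs, and the pairing sites in the RefSeq TAIR10.1 transcripts are shown here because the members that carry them recur in the results. A search of the 45 members' transcripts, where a mismatch counted 1 and a G to U pair 0.5, kept sites with a penalty of up to 4. Sequences are in DNA letters, 5′ to 3′. In miR160a and miR167a the capitals are the seed, bases 2 to 8. In the TAS3 window they mark the same positions, but its first base need not be that of a small RNA. In a site the capitals are the bases that pair by Watson-Crick rules.
miR160a: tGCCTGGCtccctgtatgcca
ARF17 site, penalty 0.5: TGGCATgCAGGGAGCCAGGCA
ARF10 site, penalty 2.0: aGGaATACAGGGAGCCAGGCA
ARF16 site, penalty 2.5: gGGttTACAGGGAGCCAGGCA
miR167a: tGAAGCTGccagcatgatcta
ARF8 site, penalty 3.0: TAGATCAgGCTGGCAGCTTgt
ARF6 site, penalty 4.0: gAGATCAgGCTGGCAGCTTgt
TAS3 window of 21 bases: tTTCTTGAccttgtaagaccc
ARF3 and ARF4, first site, penalty 0.5: GGGTCTTgCAAGGTCAAGAAA
ARF3 and ARF4, second site, penalty 1.5: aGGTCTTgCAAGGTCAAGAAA
ARF2 site, penalty 1.5: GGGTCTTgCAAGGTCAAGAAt
All of these sites lay in coding sequence. The miR160a search found the 3 class C ARFs and no other member, the miR167a search found ARF6 and ARF8, and the TAS3 window found ARF2, ARF3 and ARF4. The TAS3 window was the one with the lowest summed penalty on ARF2, ARF3 and ARF4, so its match to them is by construction. ARF3 and ARF4 carried both of their sites with the same letters. A match is a description of these letters and not a measured cleavage.

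The libraries held 1448502 to 4107227 reads in genes. Libraries WT 11 and kyp 12, named with the prefix MC, were the deepest, and WT 11 had 9.0% of its reads in ribosomal RNA genes against 0.804 to 1.80% elsewhere. KYP itself had 134 and 224 reads in the WT libraries, 67 and 167 in the kyp libraries, 44 in globular embryos and 77 in the seed coat. The kyp embryos have a normal paternal allele, so this count is no check of the label. Levels are given as reads scaled to a common library size with TMM (CPM), or as CPM per kilobase of transcript (RPKM) where genes are compared. Seed coat markers were read in every library: all 10 of a list of flavonoid and ovule genes (BAN, TT4, F3H and others) were detected in each. Their summed CPM was 8956 and 3873 in the WT libraries, 5701 and 6398 in kyp, 5716 in globular embryos and 5547 in the seed coat, so 4 of the 5 embryo libraries stood above the seed coat in the sum of genes chosen to mark it. TT4 was the largest term of that sum, and in globular embryos it alone stood above the seed coat, with the other 9 markers lower. BAN was highest in the seed coat, at 326 CPM against 112 to 231 CPM in the embryo libraries. Of the 8 embryo markers, LEC1, DRN and DRNL were at 0 in the seed coat, DRNL also in all 4 libraries of 2-to-4-cell embryos. ATML1 at 327 CPM and PDF1 at 423 CPM were read in the seed coat, and its sum of 752 CPM lay within the embryo libraries' range of 696 to 3149 CPM. WOX2, which marks the apical daughter of the zygote, was lower there than in WT embryos with an adjusted p of 0.0192 in edgeR's quasi-likelihood test. LEC1 was the other of 2 embryo markers called lower there, where 0.627% of all genes tested were. The call of LEC1 was lost under 3 alternative settings. Summed endosperm markers stood at 31.5 to 116 CPM. The 3 suspensor markers WOX8, WOX9 and SSP summed to 10.2 CPM in WT 7 and 46.8 in WT 11, so the WT libraries lay apart. Their sum was 23.1 and 48.1 CPM in kyp, 19.6 in globular embryos and 6.27 in the seed coat. The part of suspensor in the members' values was not tested. In these bulk samples, fewer cells of a type and less RNA per cell cannot be told apart.

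Of the 45 members, 43 had a read in some library and 32 had a read in all 6. IAA6 and IAA33 had none, and 8 more had 1 to 20 reads over all libraries together: ARF13, IAA5, IAA14, IAA15, IAA20, IAA29, IAA32 and IAA34. The counts are named as unique reads, and a count of 0 here means no such read wholly inside the transcript. IAA33 still had 6.40% of its bases covered in WT 7, and IAA1 7.17% in the seed coat, where its count was 0. Reads were counted without a stated strand. For IAA32, IAA3, IAA13 and IAA10, 44.2, 39.6, 35.3 and 27.6% of the exon bases overlap an antisense gene in RefSeq, so their values are uncertain. IAA34 overlaps a gene on its own strand over 12.3%, and the other members overlap over 6.15% or less. The seed coat marker F3H overlaps an antisense gene over 93.8%, so its values are uncertain too.

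**Figure D1:**
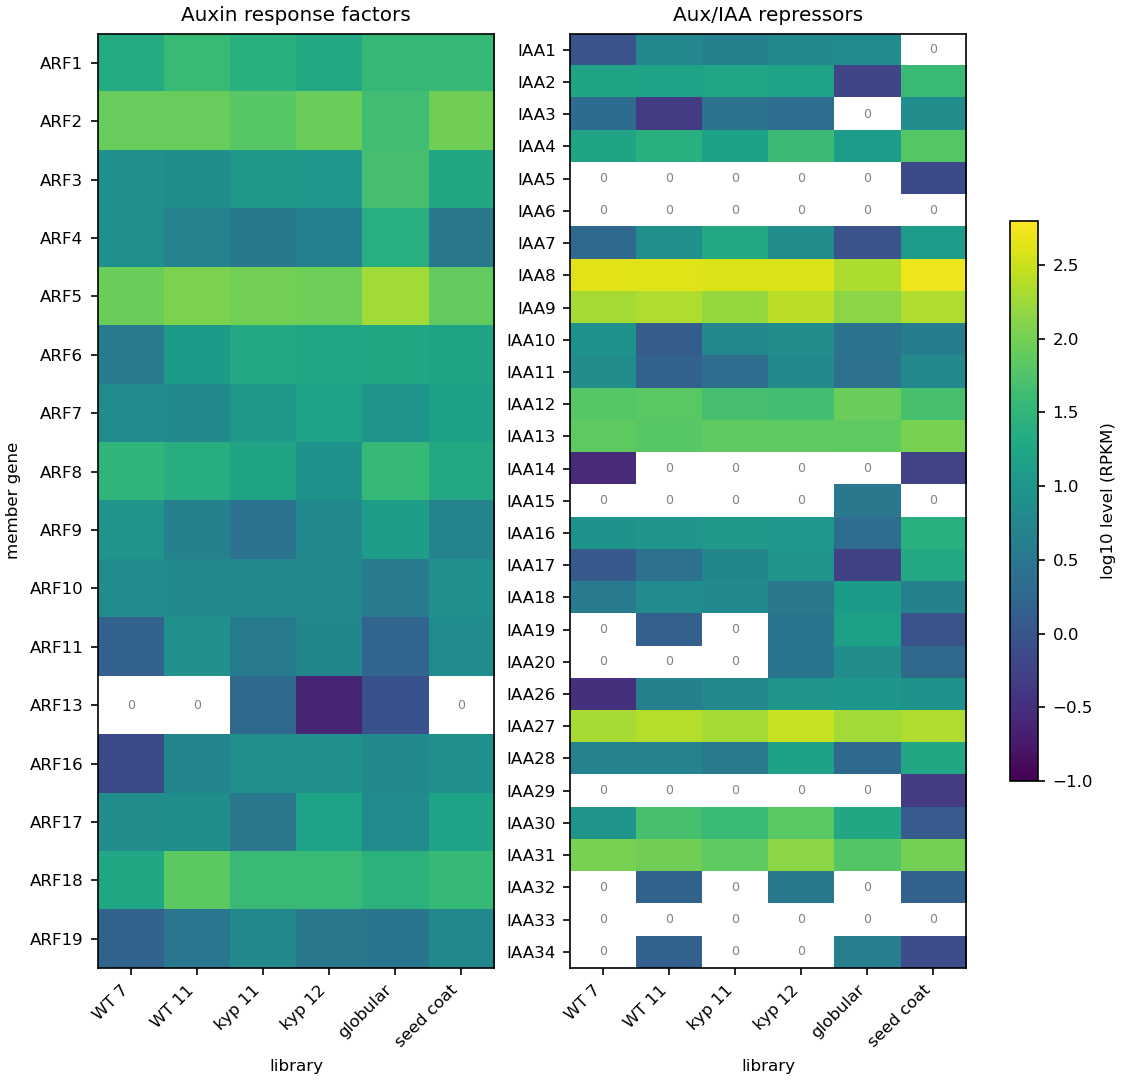
Level of each of the 45 members in each of the 6 libraries, as log10 of RPKM, with ARFs on the left and Aux/IAA repressors on the right; rows are genes, columns are libraries and white cells with a 0 hold no read. ARF5 and ARF2 form the bright rows of the left panel, IAA8, IAA9 and IAA27 those of the right, and IAA6 and IAA33 are empty across.

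A few members made up most of each family in every group. In both 2-to-4-cell groups ARF5 and ARF2 led the ARFs, and they took 52.6 to 63.6% of all ARF reads over the 6 libraries. IAA8, IAA27 and IAA9, in that order per length, led the Aux/IAA family in every library. Together these 3 held 76.8% (95% exact binomial interval 75.4 to 78.1%) of Aux/IAA reads in WT 7, 76.2% in WT 11, 74.2% in kyp 11, 74.7% in kyp 12, 68.3% (66.2 to 70.4%) in globular embryos and 72.5% (71.1 to 73.8%) in the seed coat. Such intervals cover counting error only. The globular share was the lowest of the 6.

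Summed over the family, ARFs stood at 344 ± 68.7 RPKM in WT (SD, n = 2), 330 ± 12.1 in kyp (n = 2), 462 in globular embryos and 363 in the seed coat. Aux/IAA genes stood at 1194 ± 67.1, 1246 ± 254, 858 and 1432 RPKM in the same order. Globular embryos were thus highest in summed ARF level and lowest in summed Aux/IAA level. These sums were not tested.

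ARF5 (AT1G19850), or MONOPTEROS, is the class A (activating) ARF that drives root and vascular patterning in the embryo. Its level was 87.5 and 114 RPKM in the WT libraries, 98.8 and 90.1 in kyp, 189 in globular embryos and 75.9 in the seed coat. The globular value lay above all 5 others, and the seed coat value below all of them. The globular difference from WT was a log2 fold change of 0.91 (SE 0.43) that did not pass (adjusted p = 0.437, edgeR). ARF5 took 44.8% (42.8 to 46.8%) of ARF reads in globular embryos, 28.7 to 33.2% in the 4 libraries of 2-to-4-cell embryos and 23.0% (21.4 to 24.7%) in the seed coat.

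The other class A members were lower. ARF8 (AT5G37020), which restrains fruit set before fertilisation, stood at 30.6 and 23.7 RPKM in WT, 16.7 and 8.88 in kyp, 34.7 in globular embryos and 19.7 in the seed coat. ARF6 (AT1G30330), its partner in flower maturation, stood at 3.53 and 11.6 RPKM in WT, 19.7 and 17.2 in kyp, 18.9 in globular embryos and 16.6 in the seed coat. Both carry the miR167 site shown above, and in kyp embryos their values lay on opposite sides of WT without overlap. ARF7 (AT5G20730), or NPH4, which acts in tropic growth and lateral roots, stood at 6.88 and 6.46 RPKM in WT, 10.97 and 15.7 in kyp, 9.30 in globular embryos and 14.9 in the seed coat. ARF19, its close relative, lay between 1.64 and 6.11 RPKM.

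Class A as a whole summed to 144 ± 19.9 RPKM in WT, 144 ± 12.0 in kyp, 255 in globular embryos and 133 in the seed coat. In globular embryos all 5 class A members had positive fold changes over WT, where 44.6% of all genes tested did, and none passed the adjusted threshold. Without single libraries or under the other settings that count ran from 3 to 5.

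ARF2 (AT5G62000) is a class B (repressing) ARF whose loss gives enlarged seeds and integuments, the tissue that becomes the seed coat. It stood at 83.5 and 82.7 RPKM in WT, 64.6 and 89.5 in kyp, 42.5 in globular embryos and 93.5 in the seed coat. The seed coat was the only group in which it stood above ARF5, and the globular library was the lowest of the 6. The globular fold change from WT was -0.97 on the log2 scale (SE 0.47, adjusted p = 0.468, edgeR).

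ARF3 (AT2G33860), or ETTIN, is a class B ARF of gynoecium and organ polarity that lacks the Aux/IAA interaction domain. It had 46 and 67 reads in WT, 41 and 104 in kyp, 188 in globular embryos and 99 in the seed coat. Per length that was 8.29 and 7.93 RPKM in WT, 11.5 and 10.7 in kyp, 47.2 in globular embryos and 18.7 in the seed coat. The globular library was highest and the seed coat next, with no overlap with the 2-to-4-cell libraries. Only ARF5 stood above it among the ARFs in globular embryos.

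ARF4 (AT5G60450), which acts with ARF3 in giving leaves their lower side, stood at 7.95 and 4.77 RPKM in WT, 3.398 and 4.37 in kyp, 24.0 in globular embryos and 3.31 in the seed coat. As with ARF3 the globular library was highest, but the seed coat was the lowest. ARF3, ARF4 and ARF2 share the TAS3 site shown above, and in globular embryos ARF3 and ARF4 lay above WT while ARF2 lay below. TAS3A, the precursor of the small RNA, had 5 to 15 reads in each library, so its level could not be resolved at this depth.

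**Figure D2:**
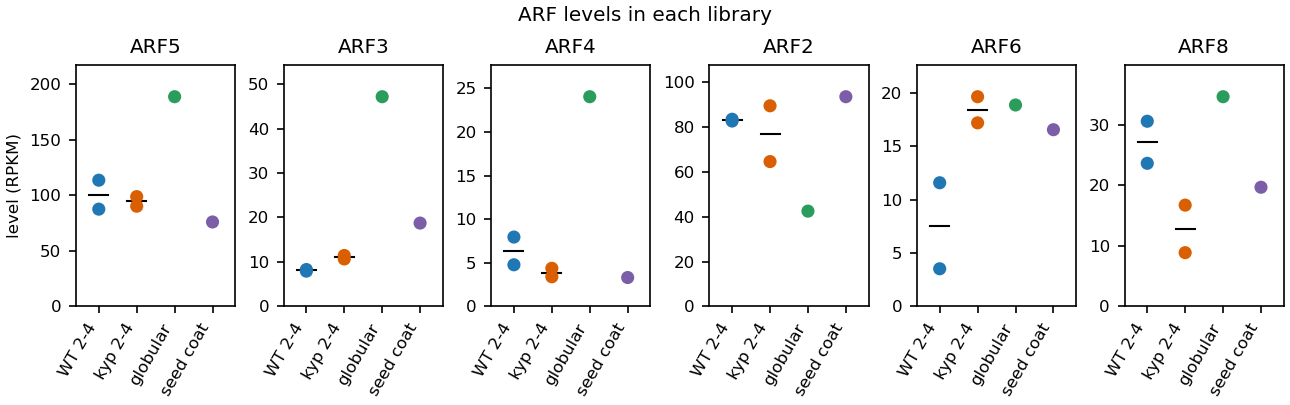
Level in RPKM of 6 ARFs, with 1 point per library, a black bar for the mean of the 2 libraries of WT and of kyp 2-to-4-cell embryos, and vertical axes from 0 that differ between panels. The globular point is the highest for ARF5, ARF3 and ARF4 and the lowest for ARF2, and the kyp points lie above WT for ARF6 and below WT for ARF8.

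The remaining class B members were less graded. ARF18 (AT3G61830) stood at 18.4 and 68.9 RPKM in WT, 38.0 and 36.9 in kyp, 27.6 in globular embryos and 34.9 in the seed coat, so its WT libraries alone spanned the other groups. ARF1 (AT1G59750) stood at 21.6 and 37.6 RPKM in WT, 26.1 and 19.4 in kyp, 34.0 in globular embryos and 35.5 in the seed coat. ARF9, known from the suspensor, lay between 2.799 and 13.2 RPKM with its highest value in globular embryos, and ARF11 between 1.58 and 8.28 RPKM. ARF13 had 11 reads in all, none of them in WT or the seed coat.

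The class C ARFs with the miR160 site were low throughout. Their sum was 17.2 ± 3.48 RPKM in WT, 23.6 ± 9.06 in kyp, 16.8 in globular embryos and 32.3 in the seed coat. ARF16 (AT4G30080), which patterns the root cap with ARF10, stood at 0.723 and 5.23 RPKM in WT, 8.13 and 8.03 in kyp, 6.29 in globular embryos and 8.17 in the seed coat. ARF10 lay between 3.67 and 8.11 RPKM and ARF17 between 3.19 and 16.0. No read was counted for the 3 MIR160 loci in any library. Their annotated lengths are 79 to 81 bases, and the mean coverage per counted read was 52.0 to 52.8 bases. Few reads could lie wholly inside them, so these counts of 0 do not show absence.

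Among the Aux/IAA genes, IAA8, IAA9 and IAA27 are close relatives that carry the full degron, the motif that auxin receptors bind. IAA8 (AT2G22670) stood at 429 and 410 RPKM in WT, 382 and 403 in kyp, 211 in globular embryos and 509 in the seed coat. IAA27 (AT4G29080) stood at 198 and 240 RPKM in WT, 194 and 303 in kyp, 187 in globular embryos and 226 in the seed coat. IAA9 (AT5G65670) stood at 192 and 223 RPKM in WT, 156 and 257 in kyp, 140.1 in globular embryos and 225 in the seed coat. For all 3 the globular library was the lowest of the 6. IAA27 and IAA9 lie close in that order, and their WT means, 219 ± 29.2 and 208 ± 21.8 RPKM, differed by less than their spread.

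IAA12 (AT1G04550), or BODENLOS, the repressor that holds MONOPTEROS, stood at 63.8 and 66.5 RPKM in WT, 48.5 and 44.7 in kyp, 85.0 in globular embryos and 50.3 in the seed coat. Like ARF5 it was highest in globular embryos, and its kyp libraries lay below both WT libraries. IAA13 (AT2G33310), its close relative, stood at 71.3 and 66.0 RPKM in WT, 74.4 and 73.6 in kyp, 71.1 in globular embryos and 108 in the seed coat. Neither passed a test in any comparison.

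IAA31 and IAA30 belong to the Aux/IAA proteins without a complete degron, which are long-lived. IAA31 (AT3G17600) stood at 109 and 95.7 RPKM in WT, 72.9 and 136 in kyp, 61.2 in globular embryos and 101 in the seed coat. IAA30 (AT3G62100), a gene that the embryo regulator LEC2 is known to activate, stood at 9.34 and 49.5 RPKM in WT, 38.0 and 67.8 in kyp, 18.7 in globular embryos and 1.23 in the seed coat. The seed coat held 2 reads of it against 16 to 204 in the embryo libraries. IAA20, of the same kind, had 8 reads each in kyp 12 and in globular embryos, 3 in the seed coat and none elsewhere.

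IAA2 and IAA4 are auxin-induced repressors. IAA2 (AT3G23030) stood at 16.3 and 15.5 RPKM in WT, 17.6 and 16.3 in kyp, 0.631 in globular embryos and 36.2 in the seed coat. IAA4 (AT5G43700) stood at 16.8 and 25.9 RPKM in WT, 14.7 and 38.5 in kyp, 12.7 in globular embryos and 62.5 in the seed coat. IAA17 (AT1G04250), or AXR3, whose stable form blocks root gravitropism, stood at 1.18 and 2.58 RPKM in WT, 5.48 and 9.61 in kyp, 0.546 in globular embryos and 19.4 in the seed coat. In all 3 the globular library was the lowest and the seed coat the highest of the 6.

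The same held for IAA16, at 2.32 RPKM in globular embryos and 25.6 in the seed coat with 9.01 to 11.4 in the rest. IAA7, or AXR2, was lowest in globular embryos at 0.944 RPKM and highest in kyp 11 at 19.4. Over IAA1, IAA2, IAA3, IAA4, IAA7, IAA14, IAA16 and IAA17, a group of relatives that was summed after its values were seen, the level was 58.3 ± 13.4 RPKM in WT, 83.4 ± 10.3 in kyp, 24.2 in globular embryos and 164 in the seed coat. IAA1 went the other way, with 10 reads in globular embryos and none in the seed coat.

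**Figure D3:**
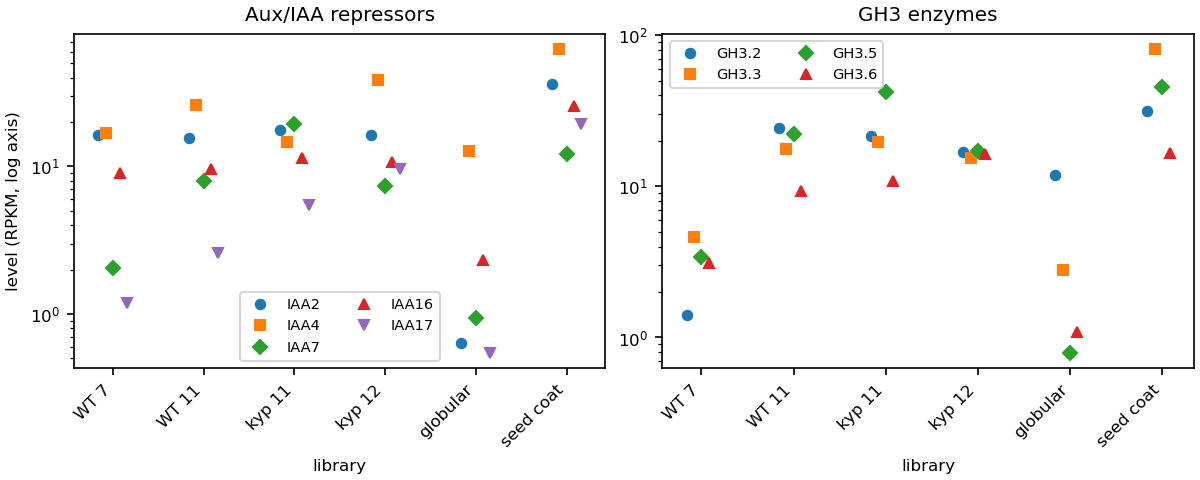
Level in RPKM on a log axis, by library, of 5 Aux/IAA genes (left) and 4 GH3 enzyme genes (right), chosen after their values were seen, with 1 point per gene and library. On the left the globular points are the lowest for all 5 genes and the seed coat points the highest for all but IAA7; on the right GH3.3 is highest in the seed coat and WT 7 lies below WT 11 for all 4 genes.

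Other Aux/IAA members were also highest in globular embryos, on low counts. IAA19 (AT3G15540), or MSG2, which acts in tropic bending of the hypocotyl, had 24 reads in globular embryos, 0 and 5 in WT, 0 and 12 in kyp and 2 in the seed coat. Its difference from WT was not called (log2 fold change 4.16, SE 2.28, adjusted p = 0.535, edgeR). IAA18, known from mutants with fused cotyledons, stood at 12.0 RPKM in globular embryos and 3.32 to 6.92 elsewhere. IAA1, IAA15, IAA20, IAA26 and IAA34 were highest there too, on 3 to 22 reads. IAA26 stood at 9.95 RPKM there, close to 9.44 in kyp 12.

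The 250 bases before the start of 3 genes are shown because they hold the auxin response element letters TGTCTC and belong to genes at an extreme in 1 library. They are ARF3 and IAA19 for globular embryos and GH3.3, an auxin-induced enzyme gene described further on, for the seed coat. Capitals mark TGTCTC on the printed strand or, as GAGACA, on the other strand.
ARF3: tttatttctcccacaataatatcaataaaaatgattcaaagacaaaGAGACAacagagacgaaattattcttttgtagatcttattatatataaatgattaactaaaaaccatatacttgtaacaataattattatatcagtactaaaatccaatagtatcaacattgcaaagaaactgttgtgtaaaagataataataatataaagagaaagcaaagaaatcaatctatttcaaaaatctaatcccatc
IAA19: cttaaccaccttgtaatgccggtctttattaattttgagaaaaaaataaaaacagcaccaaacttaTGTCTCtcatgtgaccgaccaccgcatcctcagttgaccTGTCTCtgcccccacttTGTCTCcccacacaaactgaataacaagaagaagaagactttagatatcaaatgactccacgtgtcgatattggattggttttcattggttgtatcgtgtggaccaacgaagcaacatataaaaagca
GH3.3: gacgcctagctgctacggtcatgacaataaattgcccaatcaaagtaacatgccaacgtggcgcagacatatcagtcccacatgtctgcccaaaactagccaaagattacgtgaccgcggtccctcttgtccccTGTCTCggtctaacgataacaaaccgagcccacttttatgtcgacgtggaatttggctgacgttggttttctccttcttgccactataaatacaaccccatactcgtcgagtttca
TGTCTC occurred on either strand in the windows of 9 of 29 Aux/IAA members (31.0%), 1 of 16 ARFs and 10.9% of the 27443 protein-coding genes. TGTCGG, a stronger form of the element, occurred in 6 of 29 Aux/IAA members (20.7%), 2 of 16 ARFs and 4.16% of all. IAA19 was the only member with 3 copies of TGTCTC. Other members at an extreme in a library differed: IAA8 and IAA30 held 1 copy of TGTCTC each, and IAA2, IAA4 and IAA17 held neither form. The 3 windows shown were picked by these letters, and a link of the element to level was not tested. No copy is shown to be bound in these data.

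For maternal kyp against WT in 2-to-4-cell embryos, 33 members could be tested with edgeR. None was called higher, where 0.0188% of 15996 genes tested were, and none lower, where 0.0125% were. DESeq2 also called no member. At an unadjusted p under 0.05 there were 3 members, ARF6 and ARF7 higher and ARF8 lower, where 5.10% of all genes stood. ARF6 differed by a log2 fold change of 1.28 (SE 0.55, adjusted p = 0.969), ARF7 by 1.01 (SE 0.46, adjusted p = 0.970) and ARF8 by -1.09 (SE 0.46, adjusted p = 0.962).

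ARF16 at 1.41 (SE 0.88) and IAA17 at 1.98 (SE 1.16) were next by p, both with an adjusted p of 1.00. ARF16 gave 3.45 without WT 11 and 0.63 without WT 7, the WT library in which it had 4 reads. ARF5 at -0.08 (SE 0.35), IAA8 at -0.09 (SE 0.33) and IAA9 at -0.00 (SE 0.37), the most read members, gave fold changes smaller than their errors. Of the 18 Aux/IAA genes tested 14 had a positive fold change, with a median of 0.21 on the log2 scale, and of 15 ARFs 6 did, with a median of -0.10. All genes had 49.9% positive and a median of -0.00. Under the other settings the ARF median ran from -0.18 to 0.42, so its sign was not fixed, and the Aux/IAA median from 0.08 to 0.54. Without kyp 12, 10 of 18 Aux/IAA genes were positive, with a median of 0.14. The 2 libraries of a group differed by a median of 0.61 log2 units over members in WT and 0.52 in kyp, close to 0.63 and 0.56 over all genes. Groups did not overlap for 9 members above WT and 5 below of 33, where 17.0 and 16.1% of all genes did so. Of the endosperm markers 5 of 6 tested were positive with a median of 0.86 and none was called. In edgeR 2 of these 6 were higher at an unadjusted p under 0.05, where 5.10% of all genes stood in either direction. The summed level of all 9 endosperm markers was 58.9 CPM in each WT library, 116 in kyp 11 and 55.9 in kyp 12. Their part in the members' values was not tested. Without kyp 11, the library with 2 entries for the maternal genotype, ARF6 gave 1.18, ARF7 1.24 and ARF8 -1.61, and no member was called. ARF6 depended on the WT libraries, with 2.38 (adjusted p = 0.0774, edgeR) without WT 11 and 0.67 without WT 7, and ARF8 gave -0.69 without kyp 12.

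For globular embryos against WT 2-to-4-cell embryos, 35 members were tested and 1, ARF3, was called higher, where 0.384% of 17706 genes were. Its fold change was 5.81, or 2.54 on the log2 scale (SE 0.55, adjusted p = 0.0326, edgeR). With WT 11 left out the fold change was 2.51 with an adjusted p of 0.0626, and with the isoforms of each locus summed 2.53 with 0.0667. No member was called lower by edgeR, where 0.774% of genes were, nor by DESeq2, which called 1 higher. At an unadjusted p under 0.05 there were 4 members higher (ARF3, ARF4, ARF5, ARF6) and 2 lower (IAA2, IAA8), where 11.3% of all genes stood in either direction.

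IAA2, with 1 read in globular embryos against 36 and 52 in WT, had a counting ratio of 25.1-fold lower (95% interval 4.38 to 1001) and an adjusted p of 0.112. ARF4 gave 1.92 on the log2 scale (SE 0.68, adjusted p = 0.247) and IAA8 -0.99 (SE 0.44, adjusted p = 0.395). The median over all genes in this comparison was -0.12 on the log2 scale, and other changes are read beside that shift. ARFs had a median of 0.35 with 10 of 15 positive, and Aux/IAA genes a median of -0.72 with 14 of 20 negative. Over the other settings the ARF median ran from 0.19 to 0.59 and the Aux/IAA median from -0.85 to -0.46. Groups did not overlap for 13 members above WT and 14 below of 35, where 33.9 and 35.5% of all genes did so. Beside these values, 9 of the 10 seed coat markers lay below both WT libraries in globular embryos, with a median of -0.69, and their part in the Aux/IAA values was not tested.

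For the seed coat against WT 2-to-4-cell embryos, 35 members were tested and edgeR called none higher, where 0.158% of 17706 genes were, and none lower, where 0.627% were. At an unadjusted p under 0.05 there were 4 higher (IAA17, IAA4, ARF3, ARF7) and 1 lower (IAA30), where 9.52% of all genes stood. IAA30 had a counting ratio of 27.4-fold lower (95% interval 7.44 to 228) and a log2 fold change of -4.53 (SE 1.28, adjusted p = 0.138). DESeq2 called IAA30 lower, with an adjusted p of 0.0491, as did edgeR with no filter on low counts (0.00927). Leaving out WT 7, kyp 11 or kyp 12 also gave the call, with adjusted p of 0.00745, 0.0220 and 0.0429 in edgeR. Leaving out WT 11 did not, and gave a smaller log2 fold change of -2.86 (adjusted p = 0.297). WT 7 was itself low for this gene, as given above.

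IAA17 gave 3.31 on the log2 scale (SE 1.24, adjusted p = 0.326) and IAA4 1.54 (SE 0.65, adjusted p = 0.436). ARF3 gave 1.21 (SE 0.56, adjusted p = 0.516) and ARF7 1.16 (SE 0.55, adjusted p = 0.523). Of the 35 members 24 were positive with a median of 0.28, where 49.5% of all genes were positive with a median of 0.00. The ARF median was 0.28, but 0.93 without WT 11 and 0.18 without WT 7, and the Aux/IAA median was 0.38, but 0.65 without WT 7. IAA1, with no read in the seed coat, had 2 reads in WT 7, under the floor of 3 reads, and 17 in WT 11, so no fold is given. Beside these values, 6 of the 10 seed coat markers were positive with a median of 0.10 and none was called. Their part in the members' values was not tested. The seed coat lay above both WT libraries for 19 members and below both for 6 of 35, where 36.1 and 30.5% of all genes did so. All 3 comparisons share the same WT libraries.

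**Figure D4:**
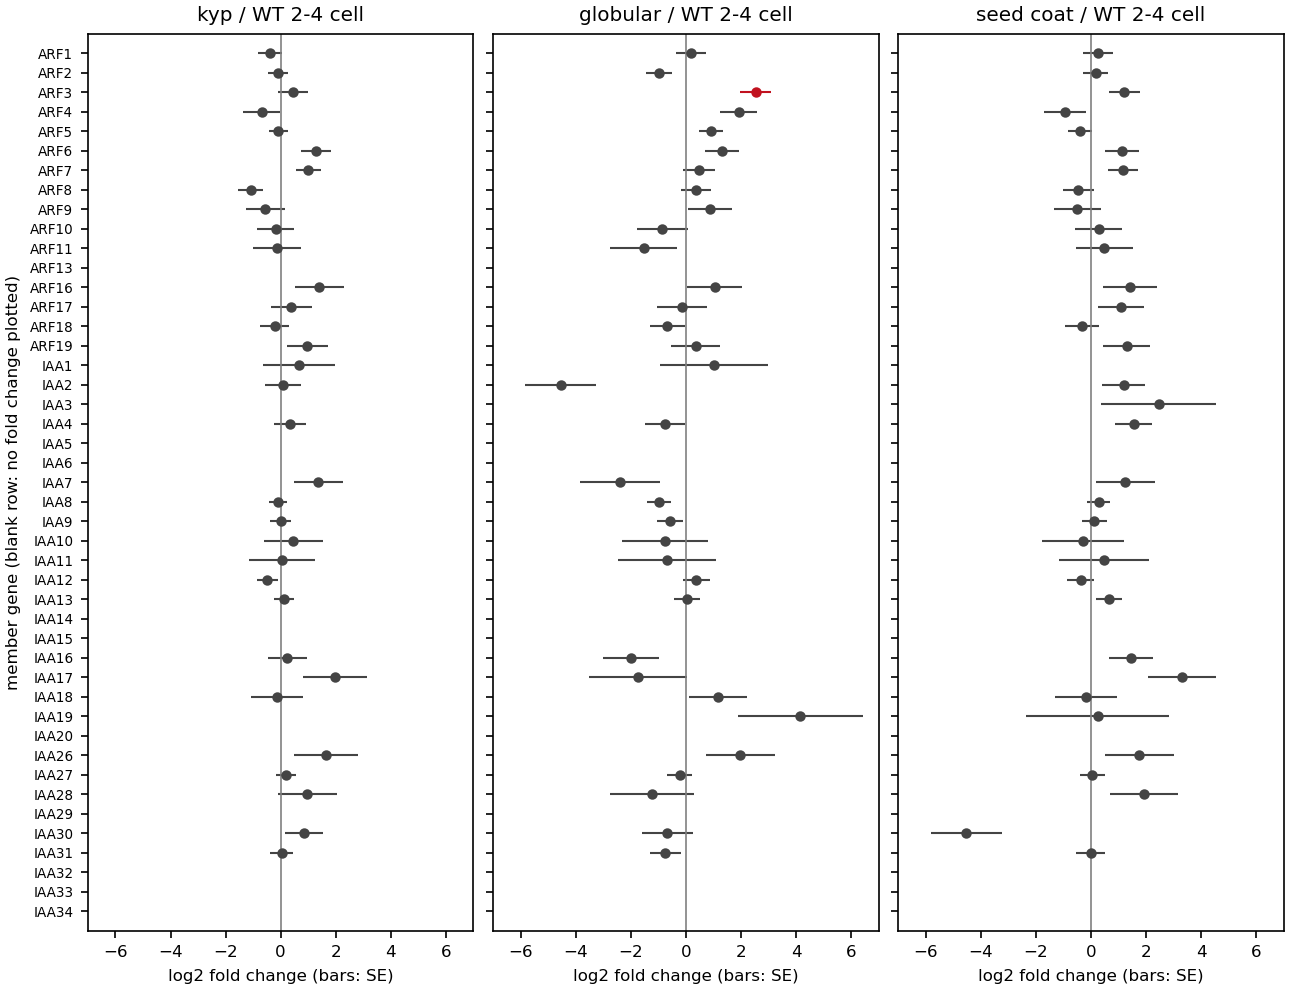
Log2 fold change of each tested member against the 2 WT libraries of 2-to-4-cell embryos, with the SE as bars, for kyp embryos (left), globular embryos (middle) and the seed coat (right); members not tested, and IAA1 and IAA3 where a group holds no read, have no point. The red point is ARF3 in globular embryos at 2.54, the only member with an adjusted p under 0.05, and the far left points are IAA2 in globular embryos and IAA30 in the seed coat.

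Upstream of these families stand the auxin receptors. AFB5, the most read of the 6 receptor genes per length, stood at 82.5 and 64.1 RPKM in WT, 77.2 and 58.7 in kyp, 69.8 in globular embryos and 79.0 in the seed coat. AFB4, its close relative, stood at 44.8 and 36.3 RPKM in WT, 31.1 and 40.3 in kyp, 10.7 in globular embryos and 27.5 in the seed coat, with exons that overlap an antisense gene over 17.7%. None of the 6 receptor genes was called in any comparison. At an unadjusted p under 0.05 stood 0 of them in kyp, 3 in globular embryos (1 higher, 2 lower) and 0 in the seed coat. Over all genes tested the shares under that p were 5.10, 11.3 and 9.52% in the same order. AFB4 in globular embryos gave -1.92 (SE 0.56, adjusted p = 0.132, edgeR). AFB2 and AFB1, named after their values were seen, stood there at 50.2 and 0.864 RPKM, against 7.64 and 21.5 for AFB2 and 8.49 and 9.11 for AFB1 in the WT libraries. The exons of AFB1 overlap antisense genes over 20.4%.

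Of the 5 co-repressor genes TPL and TPR1 to TPR4, none was called in any comparison by edgeR or passed an unadjusted p of 0.05. All 5 were negative in globular embryos, with a median of -0.31 on the log2 scale. All genes tested there had a median of -0.12, and 44.6% were positive. TPR4, the highest per length outside globular embryos, stood at 46.0 and 46.1 RPKM in WT, 49.2 and 66.8 in kyp, 25.5 in globular embryos and 53.8 in the seed coat. TPR3 lay between 29.1 and 46.1 RPKM with its lowest value in globular embryos. None of the 8 genes of the SCF complex and its RUB conjugation was called either. An unadjusted p of 0.05 was passed by 1, higher in globular embryos, where 11.3% of all genes passed it. ASK1, the adaptor, lay between 159 and 261 RPKM, and RBX1, the RING subunit, between 124 and 394 RPKM with its highest value in globular embryos.

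Of 18 auxin output genes 7 were tested in kyp, and 11 in globular embryos and in the seed coat. None was called in kyp or in globular embryos. At an unadjusted p under 0.05 in edgeR stood 0 in kyp and 1 higher and 3 lower in globular embryos. In the seed coat 2 stood higher and 2 lower. The shares of all genes tested under that p were 5.10, 11.3 and 9.52% in the same order. In the seed coat 1 was called higher, where 0.158% of all genes tested were: GH3.3, whose enzyme links auxin to amino acids. It had 23 and 133 reads in WT, 63 and 135 in kyp, 10 in globular embryos and 384 in the seed coat. Per length that was 4.63 and 17.6 RPKM in WT and 81.2 RPKM in the seed coat, with a log2 fold change of 2.85 (SE 0.64, adjusted p = 0.0440, edgeR). Without WT 7, the lower of the WT libraries, the fold change was 2.21 with an adjusted p of 0.0853.

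Of 14 genes of the small RNA pathways that act on ARF transcripts, 8 were tested and none was called. There were 2 at an unadjusted p under 0.05 in globular embryos (1 higher, 1 lower) and 0 in the other comparisons. In globular embryos 11.3% of all genes stood under that p. SGS3, needed to make TAS3 small RNAs, lay between 130 and 207 RPKM and AGO1 between 43.5 and 62.4. Of 7 further ARF loci in a cluster on chromosome 1 that were not members, ARF14 had 15 reads in globular embryos and ARF12 had 8, with none in any other library. ARF15, ARF21 and ARF22 had 1 or 2 reads in a library, and ARF20 and ARF23 had none. The counts are named as unique reads and sequence shared among these 7 loci was not searched, so their low counts are uncertain. The exons of ARF14 also overlap an antisense gene over 16.4%.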

How the data were processed

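The 45 members and all gene lists were chosen with earlier results of these data known. Per the file headers, each table lists for every transcript a count of the reads that lie fully inside it, and beside it the covered bases, the summed coverage signal and the length. In WT 11 and kyp 12 the deposited values are estimated counts, since 12.7 and 10.8% of values end in 0.5 of a read; these were rounded up. The counter, aligner, build, annotation and strand are not given in the sources used here, so no coordinates are printed. Of the transcripts, 37813 were in all 6 tables and 5 in only some were left out.

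Tests used edgeR 4.0.16 in R 4.3.3: TMM scaling, a filterByExpr minimum count of 10, the quasi-likelihood F test and Benjamini-Hochberg adjustment over all genes tested at 0.05. The kyp comparison used 4 libraries. The others used all 6, with 2 residual degrees of freedom. Each SE was taken from the log2 fold change and its F value. DESeq2 1.42.0 was an alternative. Exact binomial intervals are at 95%. Where a group had no read, the floor was 3 reads per library.

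Values in every library are given for members past the threshold, the 5 highest per length in each group and family, and the 5 smallest p of each comparison. List genes are named where called, otherwise the 2 highest per length; exceptions are stated as such or give a range or a count. Counts were simulated with 200 changed genes among 15813, 16734 and 16869 tested. The kyp comparison recovered 17 of 100 genes changed 4-fold and 91 of 100 changed 16-fold. For the globular one these were 7 and 50, and for the seed coat one 2 and 52. Changed genes were drawn only from loci above a minimum expected read count, and every gene was given the same spread. These rates therefore need not hold for the members, many of which had few reads.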

Additional observations from a re-analysis of the deposited data

How the results depend on the processing

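Replicate numbers gave no pairing, because the WT and kyp groups share only 1 of them, 11, and the lone libraries carry others. The name prefix MC, carried by WT 11 and kyp 12 alone, was used as a block in an alternative fit. In the kyp comparison that block pairs WT 7 with kyp 11 and WT 11 with kyp 12. The main fit leaves it out, so its spread within each group cannot be told apart from a difference that goes with the prefix. The fold changes recomputed under each alternative were those of called genes and of the 5 members with the smallest p in each comparison, and none changed sign. ARF3 in globular embryos was called under all but 2 of them, so members called higher there numbered 0 with isoforms summed, and 0 to 1 with each library left out (0 without WT 11). Members called lower in the seed coat numbered 1, IAA30, with DESeq2, 1 with no filter on low counts, and 0 to 1 with each library left out. GH3.3 in the seed coat was not called with isoforms summed (adjusted p = 0.0977) or with WT and kyp as 1 reference group (adjusted p = 0.102).

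Counts over all genes depended more on the settings. For kyp, 5 genes were called, against 50 with DESeq2, 14 with all 6 libraries in the fit, 18 with the name prefix block, 106 with no filter and 8 to 126 with a library left out. For globular embryos, 205 were called, against 342 with DESeq2, 128 with WT and kyp as 1 reference group, 344 with the prefix block, 562 with no filter and 336 to 496 with a library left out. For the seed coat, 139 were called, against 442, 55, 296, 479 and 267 to 428 in the same order, and 85 with isoforms summed. DESeq2 also shifted the split of higher against lower calls, to 77 and 265 in globular embryos from 68 and 137, and to 47 and 395 in the seed coat from 28 and 111. With WT and kyp as 1 reference group the splits were 57 and 71, and 2 and 53. The cause of these shifts was not tested. When a library was left out, a lone library was assumed to vary like the other groups. With 1448502 to 4107227 reads per library, changes of 4-fold were mostly missed in the simulations.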
